A study of Homo sapiens with 6 samples.

Results

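The genes of the SR proteins, the heterogeneous nuclear ribonucleoproteins (hnRNPs) and the CDC-like kinases (CLKs) were followed in CAL62 cells, an established anaplastic thyroid carcinoma line, labelled wild type. All cells were cultured for 48 h, 3 libraries with 50 nM erianin and 3 with DMSO, the solvent used as control. Protein-coding genes were taken by symbol (SRSF with a number, HNRNP, or CLK1 to CLK4), which gave 42 genes of 39168 Ensembl identifiers in the tables: 11 SR proteins, 27 hnRNPs and 4 CLKs. A low-count filter left 35 of them for testing, 10 SR proteins, 21 hnRNPs and all 4 CLKs.

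SR proteins bind exonic enhancers through RNA recognition motifs and recruit the splicing machinery through a domain rich in arginine and serine (RS domain). The hnRNPs coat nascent RNA and often repress nearby exons, so that both families compete for splice site choice, and several hnRNPs also act in export, stability and translation. CLKs are nuclear kinases that phosphorylate RS domains and thereby release SR proteins from nuclear speckles. Many genes of these families limit their own output through exons or introns that expose the transcript to nonsense-mediated decay, and CLK1 transcripts with retained introns are known to be held in the nucleus.

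With erianin, CLK1 was higher by 1.53-fold and was the only member that passed both thresholds for a differentially expressed gene (DEG). These thresholds were an adjusted p of 0.05 in edgeR's quasi-likelihood test, with Benjamini-Hochberg adjustment over 12821 genes, and a log2 fold change beyond 0.5 in either direction. At the adjusted p alone, CLK1, CLK4, SRSF1 and SRSF7 rose, and SRSF5 and HNRNPUL1 fell. These 6 genes were 17.1% of the 35 tested members, beside 14.9% of all tested genes, so the share was near the background. The share of DEGs was 8.73% over all tested genes, 5.37% upwards and 3.36% downwards. No SR protein or hnRNP was a DEG in this test. Unadjusted p-values under 0.05 were found for 7 of 10 SR proteins and 6 of 21 hnRNPs, beside 30.9% of all tested genes. DESeq2, which called 9.07% of all genes DEGs, likewise called none of either family. Other settings did: edgeR called 1 SR protein with upper-quartile factors, without DMSO replicate 1 and without DMSO replicate 3, and limma on TPM called 3. The share of DEGs over all genes in these other settings is not given here.

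The stretches before the start sites of the 6 genes past the adjusted p are shown because these genes changed in the same test, 4 upwards and 2 downwards. Each run is 250 bases long and ends at the base before the RefSeq start site (GRCh38.p14). It is written 5′ to 3′ on the strand of the gene. Capitals mark every match, on either strand, to 5 motifs. These were the CCAAT box, the cAMP response element with its core TGACG, the GC box with the letters GGGCGG, the ETS core with the letters CCGGAAG, and the heat shock element with the letters GAANNTTC.
CLK1 (chr2:200864659-200864908, minus strand): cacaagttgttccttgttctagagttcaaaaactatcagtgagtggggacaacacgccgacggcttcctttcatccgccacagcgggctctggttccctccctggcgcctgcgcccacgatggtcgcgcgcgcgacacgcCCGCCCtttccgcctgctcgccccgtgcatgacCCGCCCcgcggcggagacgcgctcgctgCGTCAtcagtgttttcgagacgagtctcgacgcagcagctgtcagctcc
CLK4 (chr5:178627051-178627300, minus strand): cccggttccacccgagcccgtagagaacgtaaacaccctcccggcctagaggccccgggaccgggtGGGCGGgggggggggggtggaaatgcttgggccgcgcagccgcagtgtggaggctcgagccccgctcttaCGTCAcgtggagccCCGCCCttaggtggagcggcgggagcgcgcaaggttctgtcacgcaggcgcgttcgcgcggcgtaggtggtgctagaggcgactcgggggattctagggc
SRSF1 (chr17:58007247-58007496, minus strand): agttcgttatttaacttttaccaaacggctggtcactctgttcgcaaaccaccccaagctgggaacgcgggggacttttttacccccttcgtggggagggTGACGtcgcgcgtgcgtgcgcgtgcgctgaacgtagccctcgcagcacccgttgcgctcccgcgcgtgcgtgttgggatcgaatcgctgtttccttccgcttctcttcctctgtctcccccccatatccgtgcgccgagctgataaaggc
SRSF7 (chr2:38751495-38751744, minus strand): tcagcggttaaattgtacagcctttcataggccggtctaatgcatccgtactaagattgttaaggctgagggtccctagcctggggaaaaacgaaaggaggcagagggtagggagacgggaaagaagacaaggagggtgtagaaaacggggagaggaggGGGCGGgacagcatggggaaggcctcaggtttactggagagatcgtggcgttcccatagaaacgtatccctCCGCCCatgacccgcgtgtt
SRSF5 (chr14:69766892-69767141, plus strand): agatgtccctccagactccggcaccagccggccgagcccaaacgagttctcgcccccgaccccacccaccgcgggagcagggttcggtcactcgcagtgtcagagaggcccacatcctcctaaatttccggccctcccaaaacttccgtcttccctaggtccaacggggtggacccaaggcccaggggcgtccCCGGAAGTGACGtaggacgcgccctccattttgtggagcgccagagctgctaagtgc
HNRNPUL1 (chr19:41262307-41262556, plus strand): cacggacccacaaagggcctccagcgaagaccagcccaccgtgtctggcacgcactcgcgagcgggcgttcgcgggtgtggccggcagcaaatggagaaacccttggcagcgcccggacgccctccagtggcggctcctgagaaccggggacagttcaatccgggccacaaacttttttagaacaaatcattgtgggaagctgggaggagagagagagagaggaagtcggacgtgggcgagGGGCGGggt
The TGACG core stood in the windows of CLK1, CLK4, SRSF1 and SRSF5 and not in those of SRSF7 and HNRNPUL1. It was present in 15 of the 33 tested members with a promoter in the RefSeq table (45.5%), beside 21.2% of 35116 promoter windows of this length. The GC box was found in 22 of 33 (66.7%, beside 42.6%), the CCAAT box in 15 of 33 (45.5%, beside 32%), the ETS core in 5 of 33 (15.2%, beside 8.52%) and the heat shock element core in 2 of 33 (6.06%, beside 5.78%). The 35116 windows were taken over all promoters and not over tested genes alone. A share over tested genes is not given, so these differences cannot be read as traits of the families. In SRSF5 the ETS core lay directly before the TGACG core. No motif of the 5 was held by all 4 members that rose and absent from both that fell, and a match describes letters, not a binding site.

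In the DMSO libraries 25776301 to 34107727 reads were counted on named genes, a range that also holds the erianin libraries. DMSO replicate 3 stood apart. A chi-square per gene of 91.4 and 105 separated it from the other DMSO libraries, against 4.37 between those libraries and at most 4.8 among erianin libraries, and the common coefficient of variation fell from 0.139 to 0.0421 without it. Of 7 epithelial and carcinoma markers, 6 were at 1 CPM or more (means of 1413 CPM for KRT8, 1110 for VIM and 552 for PAX8). The exception was CDH1, at 0.118 CPM. Thyroglobulin (TG, 0.0944 CPM) and 5 of 6 differentiated thyrocyte markers in all were below 1 CPM. All 5 leukocyte and all 4 endothelial markers were below 1 CPM, and of 4 fibroblast markers COL1A1 was above it, with DCN at 0. The labels do not say whether the replicates were separate cultures, so p-values measure the spread between these libraries, which may be technical. In bulk RNA, fewer cells expressing a gene and less of its RNA per cell cannot be told apart.

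Among the kinases, CLK1 (ENSG00000013441; chr2:200853009-200864744, GRCh38) showed the largest change of any tested member. Its normalized counts were 28.6, 27.7 and 32.4 CPM, the counts scaled to library size, in DMSO replicates 1, 2 and 3, and 43.8, 46.6 and 45.8 CPM in erianin replicates 1, 2 and 3. Every erianin library was above every DMSO library. The log2 fold change was 0.62 ± 0.09 (SE; adjusted p = 0.00766, edgeR, n = 3 per group).

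CLK4 (ENSG00000113240; chr5:178602664-178630615), a close relative of CLK1, was the least expressed kinase. It had 10.9, 10.7 and 11 CPM with DMSO and 15.5, 13.5 and 13.9 CPM with erianin. The groups did not overlap, and the log2 fold change was 0.40 ± 0.10 (SE; adjusted p = 0.0421, edgeR). CLK1 and CLK4 are paralogs, so some of their reads may have been assigned to either gene.

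CLK2 had 37.3, 35.9 and 40.1 CPM with DMSO and 36.6, 32.5 and 30 CPM with erianin. The groups overlapped (log2 fold change -0.19 ± 0.10, adjusted p = 0.251, edgeR). CLK3 had 123, 119 and 135 CPM with DMSO and 131, 137 and 132 CPM with erianin, again with overlap (0.08 ± 0.08, adjusted p = 0.502, edgeR). CLK3 lies opposite EDC3, a gene with 11857 counts beside its own 24931, and EDC3 did not pass the test either (log2 fold change -0.04, adjusted p = 0.849, edgeR).

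Per length, the order of the kinases in DMSO was CLK2 (18.4 ± 0.299 TPM, SD), CLK3 (17.1 ± 0.327 TPM), CLK1 (8.50 ± 0.276 TPM) and CLK4 (2.22 ± 0.0872 TPM). Neighbours in this order were further apart than their SDs. With erianin CLK1 stood at 15.0 ± 0.482 TPM, CLK2 at 18.4 ± 1.76 TPM, CLK3 at 20.8 ± 0.353 TPM and CLK4 at 3.37 ± 0.262 TPM. The deposited TPM columns sum to 59.1% to 73.4% of their nominal total with DMSO and 75.1% to 78.3% with erianin. TPM values of DMSO and erianin, here and for single genes below, therefore differ in scale. The 4 kinases together made up 199, 193 and 219 CPM with DMSO and 227, 229 and 222 CPM with erianin.

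**Figure D1:**
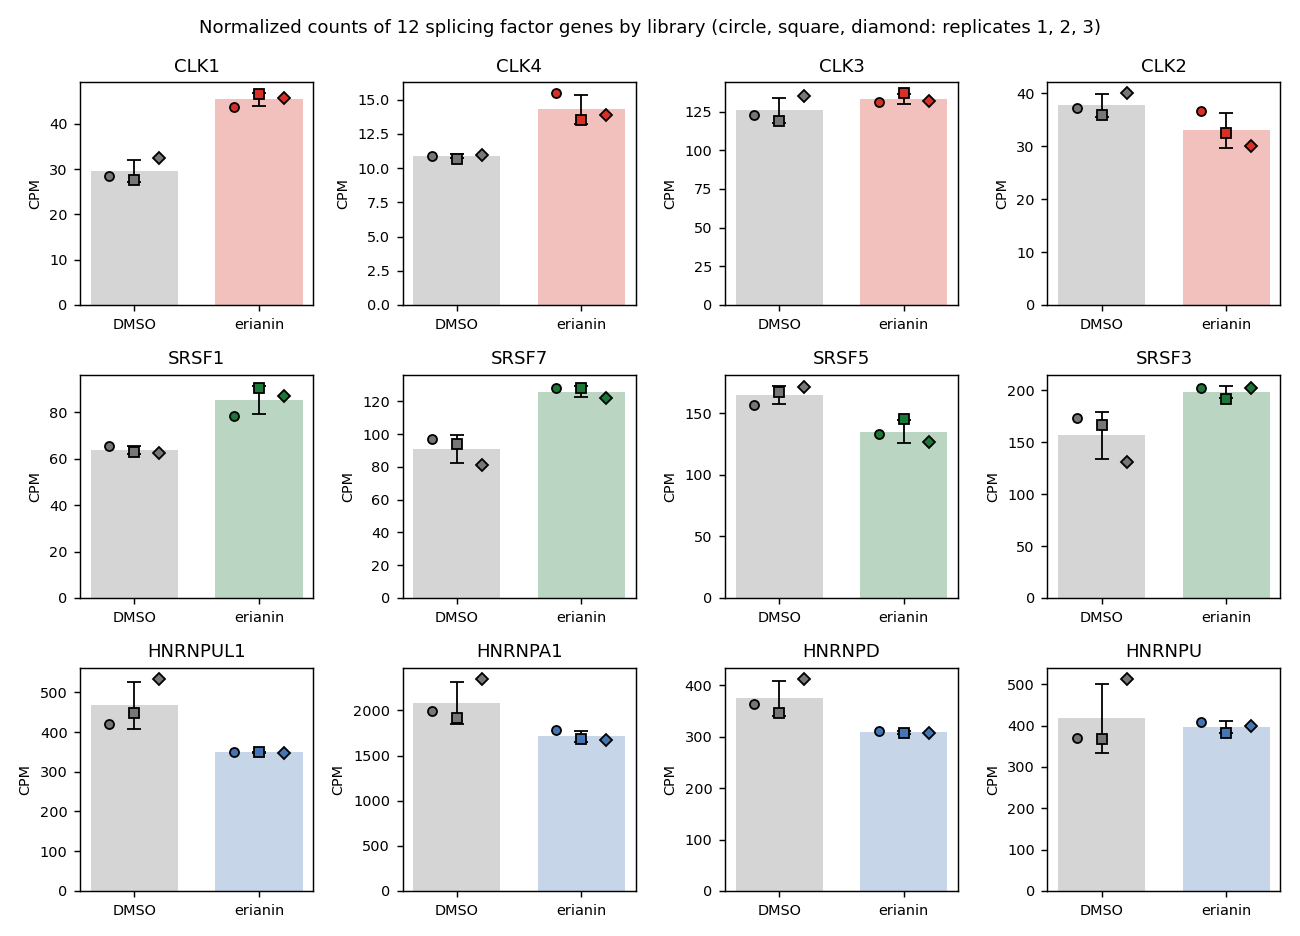
TMM-normalized counts (CPM, linear axes from 0) of 12 genes with DMSO (grey) and erianin (colour; red CLKs, green SR proteins, blue hnRNPs). Bars are means, whiskers SDs over 3 libraries, and markers single libraries; CLK1 and CLK4 show erianin libraries above all DMSO libraries, and DMSO replicate 3 (diamond) is the highest library for HNRNPU at 513 CPM.

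The SR proteins were mostly higher with erianin. Of 10 tested, 9 had a positive log2 fold change, with a median of 0.23 beside 0.00 over all tested genes. All 10 were below the median GC content of tested genes. With each library's trend on GC removed 7 were higher and 3 lower, and with DMSO replicate 3 also left out 6 were higher and 4 lower, with a median of 0.07. The groups did not overlap for 7 of them, 6 higher and 1 lower. Over all 35 members the groups did not overlap for 16 (45.7%), 10 higher and 6 lower, beside 38.7% of all tested genes (19.5% higher, 19.3% lower). Together the SR protein genes summed to 995, 998 and 935 CPM in the DMSO libraries and to 1088, 1118 and 1080 CPM in the erianin libraries, without overlap. At the adjusted p, 3 of the 10 passed, 2 upwards and 1 downwards, where 7.22% of all tested genes passed upwards and 7.69% downwards.

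SRSF7 (ENSG00000115875; chr2:38743599-38751494), an SR protein with a zinc knuckle, had 97.2, 94.0 and 81.3 CPM with DMSO. With erianin it had 128, 128 and 122 CPM. It rose by a log2 fold change of 0.47 ± 0.09 (SE; adjusted p = 0.0136, edgeR), the value nearest below the fold threshold, as CLK1 was the nearest above it.

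SRSF1 (ENSG00000136450; chr17:58003360-58007346) is the founding SR protein, with a known part in 5′ splice site choice and as an oncoprotein. It had 65.6, 62.9 and 62.5 CPM with DMSO and 78.5, 90.5 and 86.9 CPM with erianin. All erianin libraries were higher, by a log2 fold change of 0.42 ± 0.08 (SE; adjusted p = 0.0162, edgeR).

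SRSF5 (ENSG00000100650; chr14:69726900-69772005) was the only SR protein that fell. It had 157, 167 and 171 CPM with DMSO and 133, 145 and 127 CPM with erianin. The groups did not overlap, and it fell by 0.29 ± 0.08 on the log2 scale (SE; adjusted p = 0.0474, edgeR). Its family neighbours with a like domain layout, SRSF4 and SRSF6, had log2 fold changes of 0.01 ± 0.07 and 0.23 ± 0.08 (adjusted p = 0.965 and 0.107, edgeR).

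SRSF3, the smallest SR protein, had 173, 167 and 131 CPM with DMSO and 202, 192 and 202 CPM with erianin. The groups did not overlap, but the adjusted p was 0.0817 (log2 fold change 0.34 ± 0.11, edgeR). SRSF11 had 54.2, 58.4 and 75.8 CPM with DMSO and 86.0, 81.9 and 80.6 CPM with erianin (0.40 ± 0.13, adjusted p = 0.0780, edgeR). In both genes DMSO replicate 3 lay furthest from the other DMSO libraries, low for SRSF3 and high for SRSF11.

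SRSF9, the SR protein with the highest mean TPM (133 ± 37.0 with DMSO, 154 ± 1.70 with erianin, SD), had 167, 173 and 109 CPM with DMSO and 150, 154 and 151 CPM with erianin. Its erianin libraries lay inside the DMSO range (0.02 ± 0.16, adjusted p = 0.958, edgeR). SRSF2, a nuclear SR protein, and SRSF6 each had higher values in all erianin libraries without passing the test (0.23 ± 0.10 and 0.23 ± 0.08, adjusted p = 0.146 and 0.107, edgeR). SRSF10, a splicing repressor when dephosphorylated, overlapped between groups (0.21 ± 0.11, adjusted p = 0.261). SRSF12 was not tested, with 5 reads in all 6 libraries.

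By TPM, SRSF9 was followed by SRSF6 (81.5 ± 1.66 with DMSO), SRSF3 (67.1 ± 12.8), SRSF4 (46.0 ± 2.68), SRSF5 (40.5 ± 1.71), SRSF1 (32.4 ± 2.21), SRSF7 (29.2 ± 4.05), SRSF2 (16.4 ± 0.533), SRSF11 (14.6 ± 1.89) and SRSF10 (11.4 ± 1.06). In this DMSO order, SRSF6 and SRSF3, SRSF1 and SRSF7, and SRSF2 and SRSF11 were not further apart than their SDs.

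**Figure D2:**
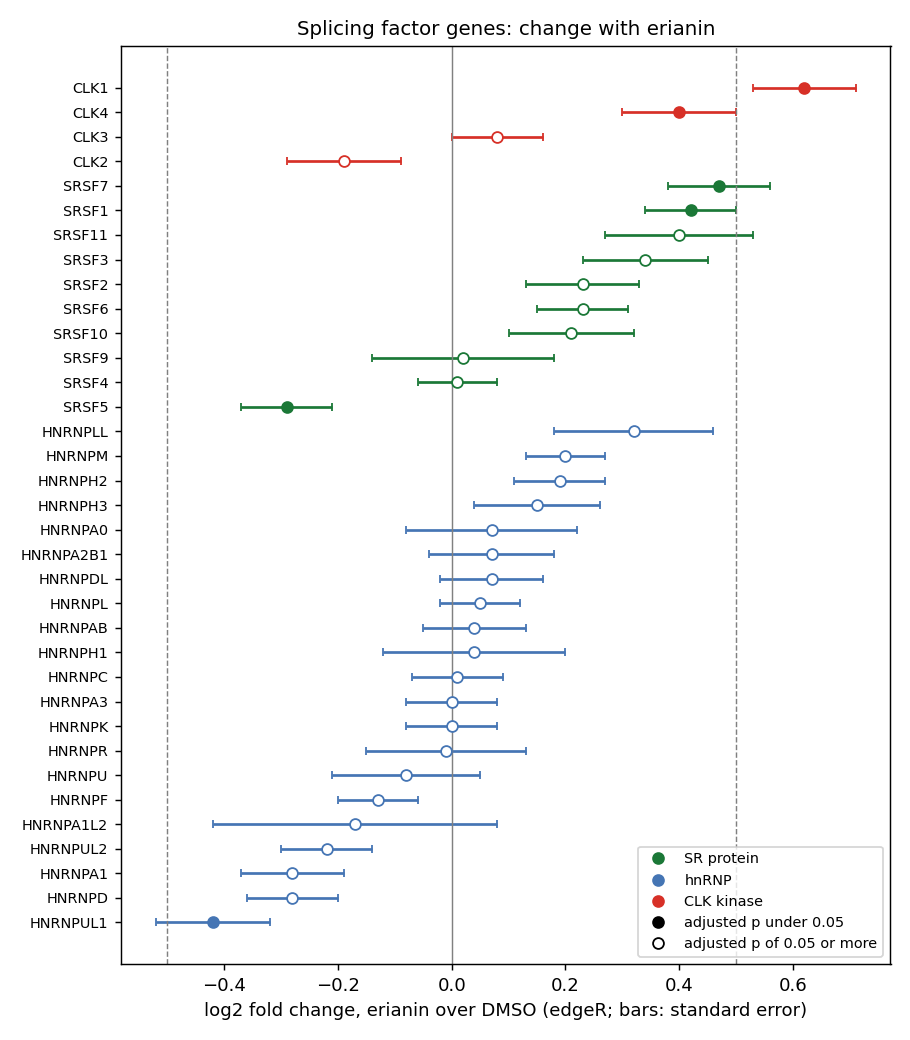
Log2 fold change of the 35 tested genes, erianin over DMSO (edgeR; points are estimates, bars SEs from 3 libraries per group, dashed lines the fold threshold of 0.5). Filled points passed an adjusted p of 0.05; CLK1 at 0.62 is the only filled point beyond a dashed line, most SR proteins lie right of 0, and the hnRNPs spread on both sides.

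The hnRNPs showed no common direction. Of 21 tested, 13 had a positive and 8 a negative log2 fold change, with a median of 0.01. At the adjusted p 1 passed, downwards (4.76%, beside 14.9% of all tested genes). The groups did not overlap for 7 hnRNPs (33.3%), 2 higher and 5 lower. Over all tested genes this share was 38.7%, 19.5% higher and 19.3% lower. The family summed to 7397, 7167 and 8326 CPM with DMSO and 7280, 7018 and 7082 CPM with erianin, so DMSO replicate 3 lay above the rest.

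HNRNPUL1 (ENSG00000105323; chr19:41262496-41307598), a relative of the scaffold attachment factor hnRNP U, had 419, 448 and 534 CPM with DMSO. With erianin it had 350, 349 and 347 CPM. It fell by 0.42 ± 0.10 on the log2 scale (SE; adjusted p = 0.0288, edgeR). The gene overlaps TGFB1 on the opposite strand, and whether counting used the strand is not stated. TGFB1 had 81813 counts beside 77677 of HNRNPUL1, at 434 ± 9.92 CPM with DMSO and 420 ± 7.33 CPM with erianin (SD; log2 fold change -0.05, adjusted p = 0.647, edgeR).

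HNRNPA1, a repressor of exons, was by far the most abundant member, at 778 ± 45.6 TPM with DMSO and 735 ± 26 TPM with erianin. Its counts were 1990, 1916 and 2350 CPM with DMSO and 1782, 1687 and 1668 CPM with erianin. The groups did not overlap, yet the test was not passed (-0.28 ± 0.09, adjusted p = 0.0854, edgeR). HNRNPD, also called AUF1 and known to bind AU-rich elements and promote mRNA decay, had 364, 347 and 413 CPM with DMSO and 312, 307 and 308 CPM with erianin (-0.28 ± 0.08, adjusted p = 0.0624, edgeR).

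The next hnRNPs by mean TPM showed little difference in CPM. HNRNPK, a binder of C-rich RNA, had 574, 571 and 669 CPM with DMSO and 614, 599 and 607 CPM with erianin (0.00 ± 0.08, adjusted p = 0.980, edgeR). HNRNPF, a binder of G runs, had 536, 504 and 491 CPM with DMSO and 476, 466 and 460 CPM with erianin, lower in every library without passing (-0.13 ± 0.07, adjusted p = 0.249). HNRNPA0 had 261, 268 and 178 CPM with DMSO and 242, 240 and 261 CPM with erianin (0.07 ± 0.15, adjusted p = 0.799). All erianin libraries of HNRNPA0 lay inside the range of its DMSO libraries.

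HNRNPAB had 308, 290 and 247 CPM with DMSO and 297, 282 and 288 CPM with erianin (0.04 ± 0.09, adjusted p = 0.813, edgeR). It overlaps PHYKPL on the opposite strand, a gene with 7690 counts beside its own 54691. PHYKPL fell (log2 fold change -0.53, adjusted p = 0.0305, edgeR). HNRNPH2, a close copy of HNRNPH1, had 47.4, 46.5 and 49.3 CPM with DMSO and 52.7, 54.5 and 55.5 CPM with erianin. It was higher in every erianin library and missed the test (0.19 ± 0.08, adjusted p = 0.144, edgeR). HNRNPH1 itself had 166, 172 and 257 CPM with DMSO and 210, 205 and 199 CPM with erianin, with DMSO replicate 3 far above all other libraries. Between these copies, reads may have been assigned to either gene.

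The remaining tested hnRNPs were HNRNPA1L2, HNRNPA2B1, HNRNPA3, HNRNPC, HNRNPDL, HNRNPH3, HNRNPL, HNRNPLL, HNRNPM, HNRNPR, HNRNPU and HNRNPUL2. Their log2 fold changes lay between -0.22 (HNRNPUL2, adjusted p = 0.111) and 0.32 (HNRNPLL, adjusted p = 0.176, edgeR). HNRNPM had the smallest adjusted p of these, at 0.0848, with 163, 162 and 152 CPM with DMSO and 186, 176 and 188 CPM with erianin. HNRNPA2B1 overlaps CBX3 on the opposite strand, with 11089 counts beside 99222 of HNRNPA2B1. CBX3 rose (log2 fold change 0.36, adjusted p = 0.0324, edgeR). SRSF2, SRSF9, HNRNPH3 and HNRNPU also overlap a gene on the opposite strand, and none of those neighbours passed the test. Untested were HNRNPUL2-BSCL2, a readthrough gene with 27 reads in all, HNRNPCL1 and HNRNPCL2 with 2 reads each, and HNRNPA1L3, HNRNPCL3 and HNRNPCL4 with 0. HNRNPA1L2 and HNRNPA1L3 are near copies of HNRNPA1, and the HNRNPCL genes of HNRNPC, so their reads are uncertain.

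DMSO replicate 3 lay at the edge of the 6 libraries for most members. It was the highest or lowest of all 6 libraries for 25 of 35 members (71.4%), beside 58.7% of all tested genes, where it was highest for 29.7% and lowest for 29%. Among the 21 hnRNPs this held for 19, 14 as the highest and 5 as the lowest library. HNRNPU, for example, had 371, 368 and 513 CPM with DMSO and 409, 381 and 398 CPM with erianin.

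Without DMSO replicate 3, 26 of 35 members passed the adjusted p, 18 upwards and 8 downwards (74.3%), beside 55.2% of all genes tested in that fit (27.5% upwards, 27.7% downwards). Of the SR proteins, 7 rose and SRSF5 and SRSF9 fell. Of the hnRNPs, 8 rose and 6 fell, HNRNPUL1 (-0.32), HNRNPD (-0.20), HNRNPUL2 (-0.20), HNRNPA1 (-0.19), HNRNPF (-0.16) and HNRNPA0 (-0.10). HNRNPH3 (0.29) and HNRNPH1 (0.27) had the largest increases of that family. The DEGs were CLK1 (0.68 ± 0.07, adjusted p = 2.18e-10) and SRSF11 (0.55 ± 0.05, adjusted p = 3.63e-10, edgeR). Without any single erianin library, no member passed the adjusted p in edgeR. Of all genes tested, 2.57%, 2.46% and 2.4% passed it without erianin replicates 1, 2 and 3. An unadjusted p under 0.05 was found for 11, 11 and 8 of 35 members in these fits. The share of all genes at that unadjusted p was 30.9% in the main test and is not given here for these fits.

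Transcript GC content moved with these values. The members were rich in AT, with a median GC of 41.2% in the longest GENCODE 29 transcript beside 48.7% over tested genes, and 29 of 35 lay below that latter value, including all 10 SR proteins. Over all genes, cut into 5 equal classes of GC content, the median log2 fold change ran from 0.13 in the class with the lowest GC to -0.10 in the class with the highest. Without DMSO replicate 3 the same medians ran wider, from 0.28 to -0.21. Of the 35 members, 16 belonged to the lowest class and none to the highest. DMSO replicate 3 differed from the other DMSO libraries in the same direction as the erianin libraries, by a median log2 ratio of 0.35 in the lowest and -0.31 in the highest class. Across the 35 members, which share all libraries, the correlation of GC and log2 fold change was -0.39 (Pearson), as a description, and -0.13 across all tested genes. Within families it was -0.14 over the 10 SR proteins and -0.21 over the 21 hnRNPs.

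**Figure D3:**
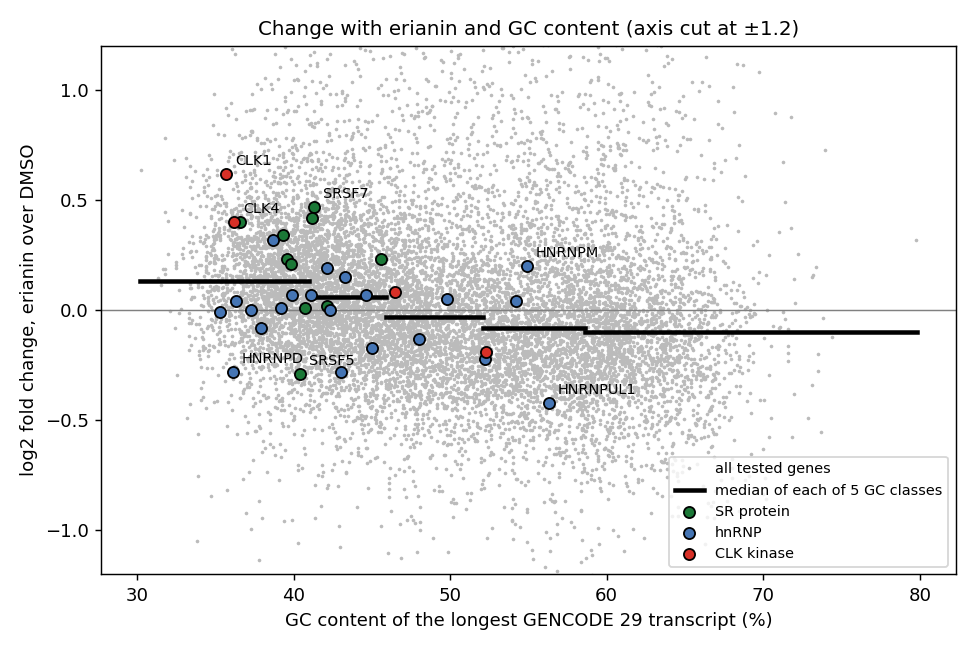
Log2 fold change (erianin over DMSO, edgeR) against transcript GC content in percent, with all tested genes in grey, members coloured by family, and black lines at the median of each of 5 GC classes. The medians step down from 0.13 to -0.10, and SR proteins and CLK1 lie at the AT-rich end, as does HNRNPD, which lies below 0.

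After each library's trend on GC content was removed (GC offset), 5 of 35 members passed the adjusted p (17.7% of all tested genes did, 8.98% upwards and 8.73% downwards), 2 upwards and 3 downwards. CLK1 rose by 0.43 ± 0.09 (adjusted p = 0.0151, edgeR) and was then no DEG. HNRNPM, among the few members rich in GC, rose by 0.28 ± 0.06 (adjusted p = 0.0210). HNRNPD fell by 0.46 ± 0.08 (adjusted p = 0.00809), SRSF5 by 0.41 ± 0.09 (adjusted p = 0.0201) and HNRNPA1 by 0.35 ± 0.07 (adjusted p = 0.0121). SRSF1 (0.31, adjusted p = 0.0764), SRSF7 (0.36, adjusted p = 0.0995), CLK4 (0.21, adjusted p = 0.323) and HNRNPUL1 (-0.35, adjusted p = 0.118) no longer passed.

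With the GC trend removed, the median log2 fold change was 0.14 for the SR proteins, of which 7 were higher and 3 lower, and -0.11 for the hnRNPs, of which 7 were higher and 14 lower. With DMSO replicate 3 also left out, an alternative chosen after seeing the data, 8 members rose and 12 fell (57.1%, beside 45.8% of all genes tested in that fit, 22.4% upwards and 23.4% downwards). Of the hnRNPs, 2 rose and 9 fell in that fit. HNRNPR and HNRNPU passed in opposite directions without DMSO replicate 3, at 0.17 (adjusted p = 0.00171) and 0.09 (adjusted p = 0.0495), and with the GC trend removed as well, at -0.17 (adjusted p = 0.0031) and -0.19 (adjusted p = 0.000505, edgeR). CLK1 was then at 0.35 ± 0.06 (adjusted p = 4.39e-05) and SRSF5 at -0.49 ± 0.05 (adjusted p = 8.81e-10). HNRNPD was the only DEG of that fit among the members, at -0.53 ± 0.04 (adjusted p = 1.53e-12, edgeR).

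The balance of directions differed between scales. Where 4 members rose and 2 fell at the adjusted p with TMM factors, 6 rose and none fell with upper-quartile factors, where 9.06% of all tested genes rose and 5.9% fell. With upper-quartile factors the median of all tested genes was 0.05. On the deposited TPM values, whose columns sum to 59.1% to 78.3% of their nominal total, 12 members rose and none fell in limma on log2(TPM + 1) (34.3%, beside 17.3% of all genes tested that rose and 2.34% that fell). That fit differs from the main test in length scaling, filter and test as well as in scaling between libraries. Its median over all tested genes was 0.18, and the members' median was 0.26. In it CLK1 was at 0.75 ± 0.06, SRSF7 at 0.66 ± 0.11 and SRSF1 at 0.60 ± 0.09, whereas SRSF5 stood at -0.09 ± 0.07 and HNRNPUL1 at -0.21 ± 0.08, neither past the adjusted p. With the replicate number as a block in edgeR, CLK1 and SRSF7 were the members that passed the adjusted p, beside 5.81% of all tested genes.

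**Figure D4:**
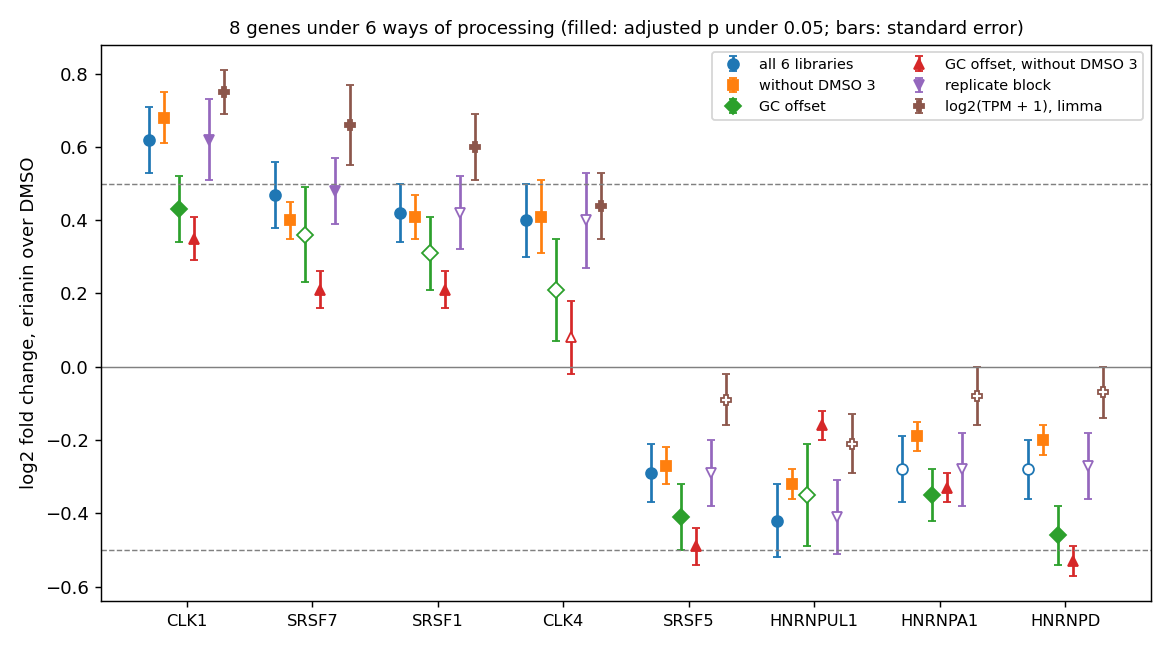
Log2 fold change (erianin over DMSO; points estimates, bars SEs, dashed lines the fold threshold of 0.5) of 8 genes under 6 ways of processing. Filled points passed an adjusted p of 0.05; CLK1 is filled in all 6, from 0.35 to 0.75, SRSF5 and HNRNPD lie lower after GC removal, and CLK4 falls to 0.08 with GC removal and no DMSO replicate 3.

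Most of the genes, though not all, have a property that the choice by symbol did not use. In GENCODE 29, 26 of 35 tested members (74.3%) have at least 1 transcript annotated as a target of nonsense-mediated decay, beside 42.5% of 12313 tested protein-coding genes. All 10 SR proteins have such a transcript, as do 13 of 21 hnRNPs and 3 of 4 CLKs. Transcripts with a retained intron are annotated for 25 of 35 members (71.4%), beside 57.6%. The protein-coding genes set beside them were not matched to the members for expression or for number of annotated transcripts. CLK1 has 4 coding, 2 decay and 8 retained-intron transcripts, and CLK4 has 4, 3 and 7. SRSF7 has 4 coding and 6 decay transcripts, whereas SRSF5 has 8 coding transcripts, 1 decay transcript and 8 with a retained intron. The counts are per gene, so productive and unproductive transcripts of a member were not told apart here.

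Other genes of the splicing machinery, on 5 lists with 123 genes, were read in the same test. Of 120 tested, 4 were DEGs, all higher (beside 8.73% of all tested genes), and 16 passed the adjusted p, 6 upwards and 10 downwards (13.3%, beside the 14.9% of all tested genes). The median log2 fold change was 0.03. These directions turned with the setting. The GC offset gave 2 DEGs upwards and 2 downwards, and the fit without DMSO replicate 1 gave 1 and 2. The share of DEGs over all genes in these fits is not given here. Limma on log2(TPM + 1) took 26 past the adjusted p upwards and 2 downwards, beside 17.3% and 2.34% of all genes tested in that fit. Without DMSO replicate 3, 55 rose and 34 fell (beside 27.5% and 27.7% of all genes).

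Among 7 kinases and import factors of SR proteins, 1 passed the adjusted p (14.3%, beside 14.9% of all tested genes). This was DYRK1B, a kinase of the DYRK family, which fell by 0.47 (35.0 ± 1.12 to 25.3 ± 0.366 CPM, SD). Its adjusted p was 0.0123 in edgeR, and 0.0918 with the GC offset. SRPK1, the main cytoplasmic SR protein kinase, had 130 ± 22.1 CPM with DMSO and 137 ± 5.03 CPM with erianin (adjusted p = 0.747). TNPO3, the importin of SR proteins, had 109 ± 7.55 and 102 ± 6.96 CPM (adjusted p = 0.483).

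Of 24 tested other proteins with RS domains, 2 rose (8.33%) and none fell at the adjusted p. Over all tested genes 7.22% rose and 7.69% fell. RSRP1 had 17.2, 17.3 and 12.9 CPM with DMSO and 30.2, 38 and 34.7 CPM with erianin, a log2 fold change of 1.12 ± 0.15 (SE; adjusted p = 0.00516, edgeR), larger than that of any member. RBM39, a splicing factor related to U2AF, rose by 0.43 ± 0.07 (180 ± 12.1 to 243 ± 3.65 CPM; adjusted p = 0.0112). The speckle scaffold SRRM2 had 728 ± 192 CPM with DMSO and 648 ± 29 CPM with erianin (adjusted p = 0.544).

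Of 32 core spliceosome genes, 1 passed, PRPF4 of the tri-snRNP (0.37 ± 0.08, adjusted p = 0.0218, edgeR), beside 14.9% of all tested genes. Without DMSO replicate 3, 26 of the 32 passed, 14 upwards and 12 downwards, beside 55.2% of all genes tested in that fit (27.5% upwards, 27.7% downwards). PRPF8, the core scaffold of the spliceosome, had 1592 ± 183 and 1297 ± 40.8 CPM (-0.30 ± 0.10, adjusted p = 0.0782). Of 14 tested genes of nonsense-mediated decay and the exon junction complex, 1 passed (7.14%, beside 14.9% of all tested genes). This was SMG9, which fell by 0.44 ± 0.08 (adjusted p = 0.0125, edgeR). UPF1, the helicase of that decay pathway, had 287 ± 34.8 and 350 ± 1.41 CPM (adjusted p = 0.0888).

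Of 43 other RNA-binding splicing regulators, 3 rose and 8 fell, beside 7.22% and 7.69% of all tested genes. Limma on log2(TPM + 1) gave 8 of 38 tested upwards and none downwards, beside 17.3% and 2.34% of all genes tested in that fit. The replicate block gave 1 gene, downwards, beside 5.81% of all tested genes. The fit without DMSO replicate 3 gave 13 and 18, beside 27.5% and 27.7%. PTBP1, a repressor that binds pyrimidine tracts, fell by 0.28 ± 0.07 (628 ± 28.5 to 518 ± 12.3 CPM, SD; adjusted p = 0.0336, edgeR). The others that fell were RBMX, RBM3, NONO, RBFOX2, ESRP2, RBM10 and DAZAP1, by 0.30 to 0.50 on the log2 scale. KHDRBS3 (0.62 ± 0.15, adjusted p = 0.0346) and RBM4 (0.72 ± 0.14, adjusted p = 0.0166) were DEGs at low levels, 5.42 and 3.88 CPM with DMSO. The identifier taken for MATR3 was also a DEG (1.30 ± 0.34, adjusted p = 0.0416), resting on 7, 8 and 5 reads with DMSO and 19, 19 and 21 reads with erianin. Whether reads of that gene were counted on another identifier was not tested. With the GC offset, PTBP1 (adjusted p = 0.318), KHDRBS3 (0.206), RBM10 (0.148), ESRP2 (0.104), MATR3 (0.0772) and DAZAP1 (0.0657) no longer passed the adjusted p in edgeR. MATR3 also missed it without DMSO replicate 3 (adjusted p = 0.0727).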

How the data were processed

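RNA was sequenced from 6 CAL62 libraries, 3 per group. Per the labels and the paper, libraries followed an Illumina protocol and were read on the BGISEQ-500; the submitters' processing notes list fastp 0.23.2, STAR 2.7.10, featureCounts 2.0.1, StringTie 2.2.1 and build GRCh38, without roles or settings. What the authors deposited are unnormalized gene counts and, for the same libraries, TPM. Of 65807 rows, 26480 without a gene identifier (0.00385% to 0.00515% of counts) were left out. Symbols were matched by Ensembl identifier (38259 of 39168), and of 159 identifiers on more than 1 row the row with most counts was taken for a member.

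Counts were tested with edgeR 4.0.16 in R 4.3.3 (TMM, filterByExpr by group, glmQLFit, glmQLFTest). SEs were derived from the F statistic. Coordinates, GC content and transcript types came from GENCODE 29. For the GC offset, each library's deviation was fitted on GC by a robust loess (span 0.5). TPM values were tested with limma 3.58.1 on log2(TPM + 1) where the mean TPM was at least 1. Other alternatives were DESeq2 1.42.0, RLE and upper-quartile factors, no low-count filter, at least 10 counts in every library, a pseudocount of 0.1, TPM without a filter, a replicate block, the GC offset with the block, other fold thresholds and each library left out. Simulated counts were used to score the main test, DESeq2, the GC offset, the replicate block, limma on log2(TPM + 1) and no low-count filter. These counts held no GC trend and no outlying library, and the other fits and steps were not scored on them.

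Members, gene lists and motifs were chosen with earlier results of these data known. Named were all DEGs, all CLKs, the 6 SR proteins and 6 hnRNPs with the highest mean TPM, members past the adjusted p or nearest the fold threshold, and untested members; of the related lists, all DEGs and up to 4 genes each by mean CPM. HNRNPM, HNRNPD, HNRNPU, HNRNPH1 and related genes past the adjusted p alone were added after their values were seen. The SR protein gene SRSF8, and LUC7L2, TAF15 and RBM8A, were not analysed here.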

Additional observations from a re-analysis of the deposited data

How the results depend on the processing

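CLK1 kept its direction under all 18 alternatives and passed the adjusted p in 15. SRSF7 passed in 13, SRSF1 in 10, CLK4 in 8, HNRNPUL1 in 7 and SRSF5 in 6, with no change of sign.

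DEGs among the SR proteins numbered 0, and 1 with upper-quartile factors, 3 in each of the 3 limma fits on TPM, 3 with no fold threshold and 0 to 1 with a library left out. Among the hnRNPs they numbered 0, and 1 with the GC offset without DMSO replicate 3, 1 with no fold threshold and 0 with any library left out. Of the CLKs, 1 was a DEG, 2 with log2(TPM + 0.1), 2 with no fold threshold, and 0 with the GC offset, with that offset and the replicate block, with that offset without DMSO replicate 3, and beyond an absolute log2 fold change of 1, and 0 to 1 with a library left out. Of the related genes, 4 were DEGs, 11 with log2(TPM + 1), 13 with log2(TPM + 0.1), 8 on TPM without a filter, 1 with the replicate block, 7 with the GC offset without DMSO replicate 3, 16 with no fold threshold, 2 beyond 1, and 1 to 18 with a library left out, 18 without DMSO replicate 3. Over all tested genes, 8.73% were DEGs in the main test, 9.07% in DESeq2 and 14.9% with no fold threshold. For the other settings this share is not given here. The share past the adjusted p was 2.4% without erianin replicate 3 and 55.2% without DMSO replicate 3. Shifts of these counts cannot therefore be told apart from shifts over all genes. The cause of these shifts was not tested, and the common coefficient of variation was 0.0421 without DMSO replicate 3.

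Signs changed for genes that the main test did not call, and the list here is not complete. With the GC offset without DMSO replicate 3, HNRNPC was at -0.18, HNRNPA2B1 at -0.04, HNRNPH1 at -0.05 and HNRNPLL at -0.05. Their values in the main test were 0.01, 0.07, 0.04 and 0.32. HNRNPA1L2 was at -0.17 in the main test and at 0.15 without DMSO replicate 3. SRSF4 was at -0.01 without the filter, -0.11 with the GC offset and with that offset and the block, -0.20 with the offset without DMSO replicate 3, -0.02 without DMSO replicate 2 and -0.03 without erianin replicate 1, in a range up to 0.04 with a library left out. With the GC offset, with that offset and the block, with the offset without DMSO replicate 3, and without DMSO replicate 3 alone, SRSF9 was at -0.10, -0.04, -0.34 and -0.17, and HNRNPA0 at -0.07, -0.02, -0.30 and -0.10, with highest values of 0.13 and 0.17 with another library left out. HNRNPAB was at -0.05 without DMSO replicate 3, SRSF3 at -0.03 with the GC offset without that library, and HNRNPF at 0.07 in the 3 limma fits on TPM.

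Deviations from the group mean were hardly correlated between samples of the same replicate number (0.00138, 0.0253 and -0.0329). Because DMSO replicate 3 stood apart from the other DMSO libraries, these correlations cannot decide whether replicates were paired. With the replicate block, 2 of 35 members passed the adjusted p, CLK1 (0.0359) and SRSF7 (0.0420), beside 5.81% of all tested genes.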

Other observations

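The 24 tested genes of other RS domain proteins had 2 increases at the adjusted p with all libraries (8.33%, beside 7.22% of all tested genes). DMSO replicate 3 was the highest of the 6 libraries for 17 of the 24, beside 29.7% of all tested genes. Leaving it out removes the highest value of those genes, a DMSO value, so increases are partly built into such a fit. Without DMSO replicate 3, 17 rose and none fell in edgeR (70.8%, beside 27.5% of all tested genes that rose in that fit), and 8 were DEGs. With the GC offset as well, 16 rose and 1 fell, beside 22.4% of all genes tested that rose, and 3 were DEGs. The share of DEGs over all genes in these fits is not given here. In the fit without DMSO replicate 3, the core spliceosome genes had 14 increases and 12 decreases among 32, and the other RNA-binding regulators 13 and 18 among 43; the RS domain list was singled out after these counts were seen. EIF4A3, the helicase of the exon junction complex, had 118 ± 23.8 CPM with DMSO and 168 ± 5.05 CPM with erianin (SD, n = 3), with a log2 fold change of 0.51 ± 0.14 and an adjusted p of 0.0511 in edgeR.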
